A study of Homo sapiens with 6 samples.

Results

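The baseline transcriptome of WM-266.4, an established human cell line from a metastatic melanoma, was described from the group of the study that received no siRNA. In this NO group, cells were seeded 24 h before transfection, went through the procedure with the lipid reagent Oligofectamine in serum-free medium and no oligonucleotide, and were harvested 72 h later. The cells had been grown in MEM with 10% fetal calf serum, so NO cells are mock-transfected and not untouched. The study's other groups received siRNA against PIR (siPIR) or non-targeting siRNA (siCTR) and are not compared here. Total RNA of 3 extractions was mixed into 1 pool per group, and its biotin-labelled target was hybridised to 2 Affymetrix HG-U133 Plus 2 arrays. The NO arrays are thus 2 of the 6 arrays of the series, taken by their label, and they hold 1 sample. Values are given below as the NO array 1 signal followed by the NO array 2 signal. Their spread is hybridisation error, there is no replicate of the culture, and no test was made.

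Melanocytes come from the neural crest and make melanin inside melanosomes, organelles of the lysosome family. The transcription factor MITF, switched on with SOX10 and PAX3, binds an E-box called the M-box at genes for melanosome proteins and melanin enzymes. Melanoma lines differ in how much of this programme they keep: pigmented, MITF-high lines are set apart from MITF-low, AXL-high invasive lines and from neural crest-like cells.

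Each of 19775 genes was represented by its brightest probe set, a group of short probes summarised as 1 signal. The signals were scaled by the array software to a common array mean and have no physical unit. The background level was set at 142, the 95th percentile of 104 genes of liver, pancreas, muscle, blood, eye and other foreign tissues, whose median was 32.9. A gene is called above background when both NO arrays exceeded this level. Over the whole array, 10315 genes were above background, or 52.2% of those represented, and 575 were above on 1 array. The share was 59.9% for protein-coding genes, 66.8% for genes with several probe sets and 35.5% for genes with 1. The lists below hold mostly protein-coding genes, so 52.2% is a low base for them. The median gene had a signal of 199, and the top 10% of genes began at 3092. A probe set's signal depends on its probes as well as on the amount of transcript, so the ranks order signals and only roughly transcripts. A low signal on the probe sets at hand does not show that a transcript is missing.

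The arrays gave close values wherever signals were above background. Over these genes the median size of the log2 difference between the arrays was 0.099, its 95th percentile was 0.43, and 13 genes differed by over 2-fold. In the top 10% the median difference was 0.056, while among genes with means from 13.2 to 27.2 it was 1.599, the largest at any signal level. It was 0.822 in the dimmest 10% and 0.341 for means from 82.9 to 199. Order among dim genes of similar signal is therefore unreliable. NO array 2 was higher for 99 of the 100 brightest genes, by a median log2 difference of 0.11, and for 49.2% of the genes above background. The control probe sets along the GAPDH transcript read 40855 at the 5' end and 39465 at the 3' end, and those along ACTB read 29696 and 37065.

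**Figure D1:**
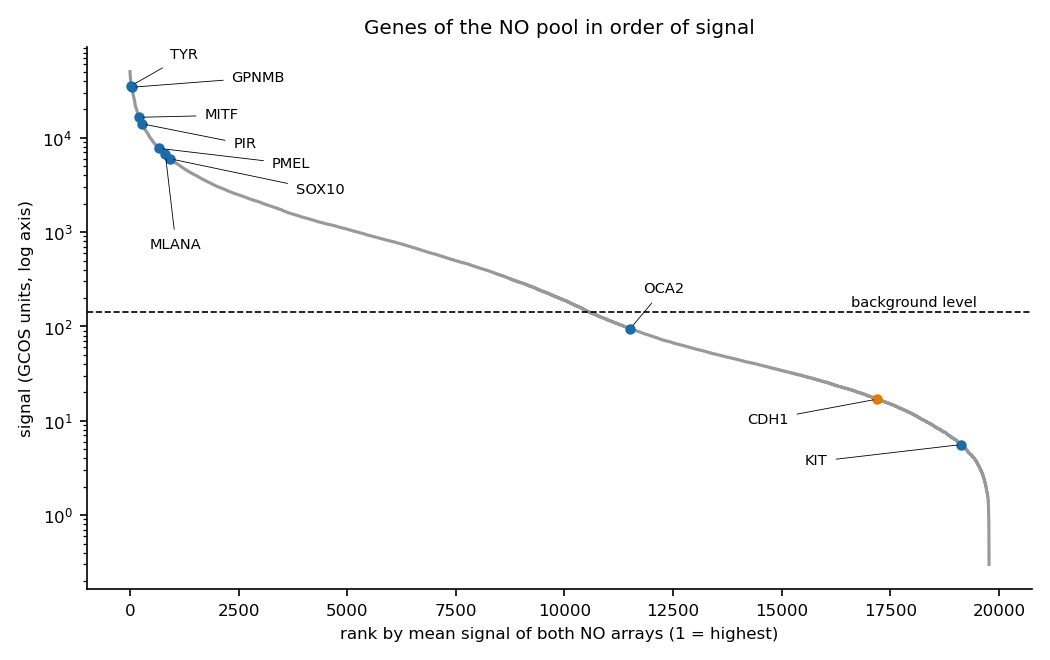
Mean signal of both NO arrays (log axis) against rank for the 19775 genes, with lineage genes and PIR in blue and CDH1 in orange. The dashed line is the background level of 142. TYR, GPNMB, MITF, PIR, PMEL, MLANA and SOX10 lie among the 1000 brightest genes, while OCA2, CDH1 and KIT lie below the line.

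The brightest transcripts were those of protein synthesis, mitochondrial respiration and the cytoskeleton, together with a few products of the melanocyte lineage and of the matrix. Of the 30 brightest genes, 16 encoded ribosomal proteins, 1 a translation factor and 4 came from the mitochondrial genome; these 30 genes held 4.77% of the summed gene signal. The 100 brightest held 13.0% and the 1000 brightest 49.8%. In the order of the 100 brightest, the array ranges of all 99 neighbouring pairs overlapped. The same array was higher for 99 of these 100 genes, so the ranges include a shift that these genes share. The overlap therefore cannot show whether neighbours differed. Whether neighbours kept their order within each array was not tested. Of these 100 genes, 32 stayed among the 100 brightest when probe sets with the suffixes _x_at and _s_at, which mark shared sequence, were left out. Highest was COX2, here the mitochondrial subunit of cytochrome c oxidase and not the prostaglandin enzyme, at 48040 and 52559. ND4, a mitochondrial subunit of complex I, read 43655 and 49546. COX1 and ATP6, further mitochondrial genes, had mean signals of 44754 and 41607, and ND2 one of 34169. The mitochondrial probe sets did not all read alike: COX3 had a mean of 8005 and ND6, which lies on the other strand of that genome, 860.

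Among nuclear genes, RPL31 led at 42923 and 51242, on a probe set shared with similar sequences. RPS23 read 45974 and 46646, and RPL39 read 43679 and 45429. RPS16, RPL37A, RPL41, RPS19 and RPLP1 followed with means of 43067, 42073, 40940, 39708 and 39472. RPS29, RPS4X, RPL7, RPL23A, RPL24, RPS10, RPL37 and RPS18 spanned means from 38315 down to 35617. Of 61 ribosomal protein genes represented, 58 were above background (95.1%, against 52.2% of all genes), and the median percentile of the family was 99.7. EEF1A1, which brings aminoacyl-tRNA to the ribosome, read 41175 and 44343. Its paralogue EEF1A2, known from neurons and muscle, had a mean of 558.

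Outside these families, the brightest nuclear genes fell into housekeeping, secreted and lineage products. TPT1, a growth-related calcium-binding protein, read 43578 and 46581. The cytoskeletal genes ACTB and VIM had means of 41832 and 37228; vimentin is the intermediate filament of mesenchymal and neural crest-derived cells. GAPDH and the prolyl isomerase PPIA had means of 40855 and 39211. SDCBP, or syntenin, a scaffold of exosome formation first known from melanoma cells, read 35461 and 37008. HUWE1, a ubiquitin ligase, read 26821 and 44162 on a shared probe set, the widest gap among these genes, so its place is uncertain. IGFBP3, a secreted carrier of insulin-like growth factors, was also among the 20 brightest genes outside protein synthesis. LOXL4, SRPX, CTHRC1 and NQO1 were picked after their values were seen. LOXL4, a lysyl oxidase, had a mean of 30663, SRPX, a sushi-repeat protein, 27570, CTHRC1, a secreted protein, 24732, and NQO1, a quinone reductase, 24844.

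The lineage identity of the cells was checked on the melanocyte markers. Of 43 melanocyte lineage genes represented, 40 were above background (93.0%), against 52.2% of all genes. Their median percentile of signal was 92.8, and 24 lay in the top 10%. PMEL, MLANA, SOX10 and MITF, which mark the melanocyte lineage, were above background on every probe set annotated with them except 1 of the 3 of MITF, which had a mean of 137. Of the 40 lineage genes above background, 28 had more than 1 probe set. Every probe set was above for 13 of these 28, against 2660 of 7028 such genes over the whole array. Above background, the lineage genes differed between the arrays by at most 0.22 on the log2 scale. DCT and SLC24A5 were not analysed here.

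The 4 lineage genes with a pair of MITF-type sites near their start are shown first, because the signal of TYR and GPNMB stood among the highest in the cells. The core searched was CATGTG, whose reverse complement is CACATG, on either strand of RefSeq promoters of GRCh38.p14 that run from 250 bases before to 50 after a gene's start. The bases before the start are printed 5' to 3' on the gene's strand, with the core in capitals. TYR is at chr11:89177625-89177874, plus strand; TYRP1 at chr9:12693135-12693384, plus strand; GPNMB at chr7:23246525-23246774, plus strand; and GPR143 at chrX:9765848-9766097, minus strand.
TYR: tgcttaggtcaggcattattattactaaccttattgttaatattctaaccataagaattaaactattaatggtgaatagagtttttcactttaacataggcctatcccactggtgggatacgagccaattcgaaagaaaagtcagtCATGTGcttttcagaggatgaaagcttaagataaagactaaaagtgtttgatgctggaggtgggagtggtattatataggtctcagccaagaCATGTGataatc
TYRP1: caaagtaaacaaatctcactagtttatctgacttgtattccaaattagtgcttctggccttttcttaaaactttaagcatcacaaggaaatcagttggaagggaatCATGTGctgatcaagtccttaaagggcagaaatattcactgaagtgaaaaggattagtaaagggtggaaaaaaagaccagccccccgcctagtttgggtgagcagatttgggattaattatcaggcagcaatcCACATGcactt
GPNMB: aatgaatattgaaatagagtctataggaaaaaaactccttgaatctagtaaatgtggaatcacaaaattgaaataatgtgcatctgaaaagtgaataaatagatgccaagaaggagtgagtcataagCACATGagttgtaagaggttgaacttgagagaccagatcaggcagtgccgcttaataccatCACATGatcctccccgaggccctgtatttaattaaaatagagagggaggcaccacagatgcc
GPR143: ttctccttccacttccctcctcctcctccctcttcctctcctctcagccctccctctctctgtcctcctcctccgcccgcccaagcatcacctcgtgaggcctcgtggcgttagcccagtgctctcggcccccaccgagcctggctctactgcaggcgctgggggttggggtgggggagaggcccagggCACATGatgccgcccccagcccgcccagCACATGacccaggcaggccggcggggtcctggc
Counted from the start, with -1 the base before it, the cores began at -104 and -12 in TYR, -144 and -11 in TYRP1, -123 and -62 in GPNMB, and -61 and -33 in GPR143. The 11 bases that the TYR sequence shows around its first core, from the agt before it to the ct after it, form the longer M-box. They were found in TYR alone among the lineage genes and in 7 of 27305 genes of the table, TYR included. A gene with several starts counts once, if any of its promoters holds the core. By that count 14 of the 35 lineage genes matched in the table held the core (40.0%), against 13.4% of all genes in the table, 11.4% of those represented on the array and 9.7% of those above background. Genes were not matched on their number of starts for these shares. The list was put together from known lineage genes, several of them known MITF targets. A raised share was thus partly set by that choice and is no separate support for MITF action. MITF and MLANA held no core, and 8 members, PMEL among them, had no promoter to search. Of the 35, 32 were above background and 13 of these held the core; OCA2, which was not above background, also held it. A match is a stretch of letters and does not show binding.

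**Figure D2:**
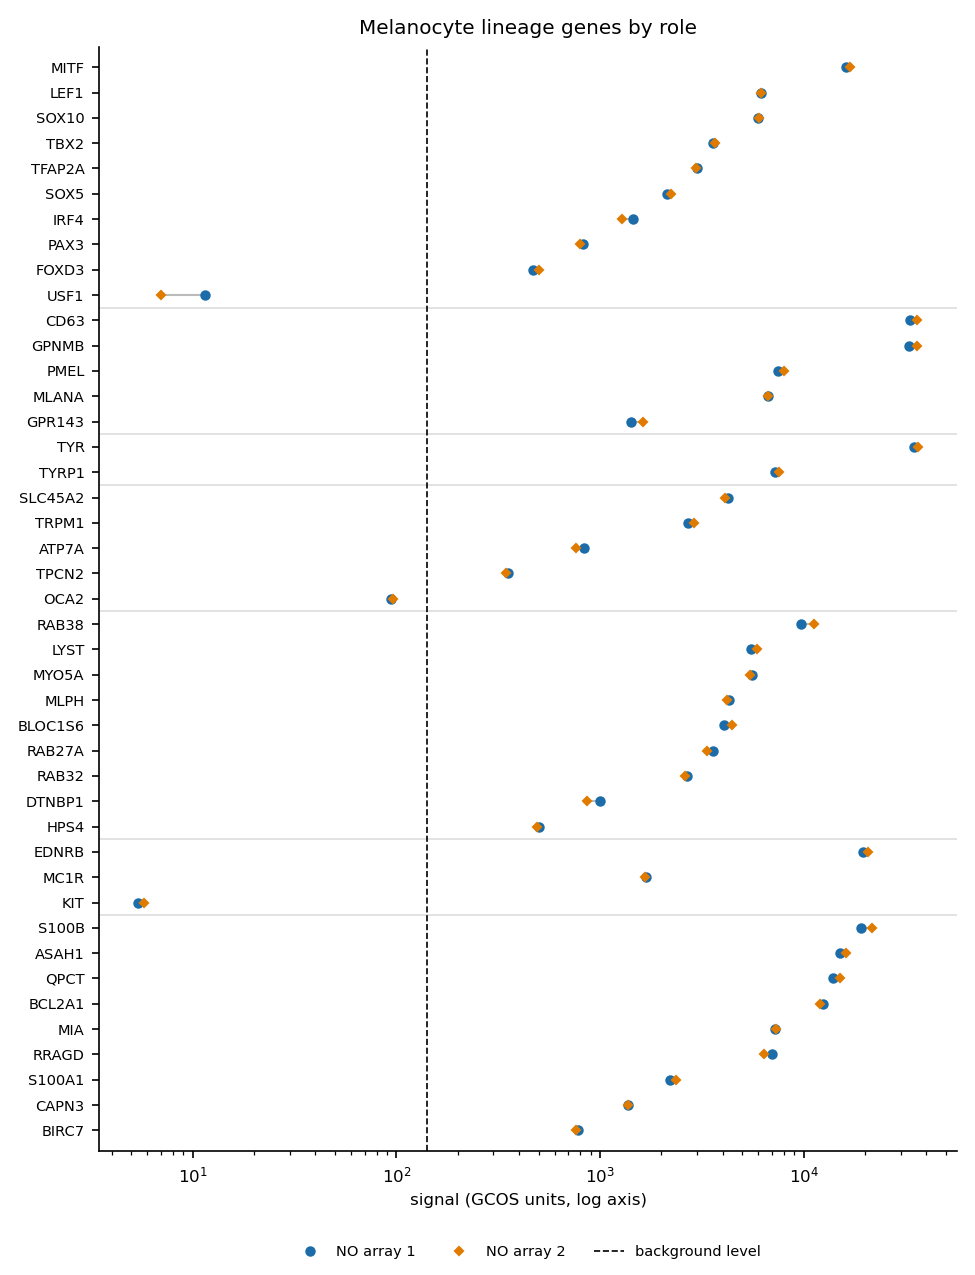
Signal on each NO array (log axis) for the 43 melanocyte lineage genes, in the order transcription factors, melanosome structure, melanin enzymes, transporters and channels, traffic, receptors and other markers, separated by grey lines; circles are NO array 1, diamonds NO array 2, and the dashed line is the background level of 142. Both arrays of USF1, OCA2 and KIT lie left of the line, and both arrays of the other 40 genes lie right of it.

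The transcription factors of the lineage were above background in 9 of 10 cases, against 52.2% of all genes. MITF, the central regulator, read 16089 and 16919 and ranked 211th. SOX10, which activates MITF, read 5982 and 6018, and LEF1, a Wnt effector that acts on the same promoter, read 6180 and 6196. TBX2, a repressor known to hold off senescence in melanoma cells, read 3569 and 3651. TFAP2A and SOX5, which act with or against MITF and SOX10, had means of 2972 and 2188. IRF4, which cooperates with MITF at TYR, read 1454 and 1276. PAX3 read 829 and 801, but only 1 of its 4 probe sets was above background, and FOXD3, a neural crest factor, read 469 and 500 on 1 of 3. USF1, a widely used E-box factor, read 11.5 and 7.0 on its single probe set.

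Melanosome and melanin genes were among the brightest of the cell. TYR, which encodes tyrosinase, the enzyme that starts melanin synthesis, read 34921 and 36434 and ranked 28th of 19775 genes; all 3 of its probe sets were above background, the lowest at 1606. TYRP1, a related enzyme of eumelanin synthesis, read 7254 and 7546. CD63, a tetraspanin of melanosomes and lysosomes, and GPNMB, a melanosomal glycoprotein, read 33259 and 35870 and 32745 and 35964. PMEL, the protein of the melanosome fibrils, read 7461 and 8008. MLANA, a melanosome antigen recognised by T cells, read 6657 and 6696; its second probe set had a mean of 1715. GPR143, the melanosomal receptor mutated in ocular albinism, read 1426 and 1622.

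The ion and solute transporters of melanosomes were more uneven. SLC45A2, which raises melanosome pH, read 4242 and 4132. TRPM1, a cation channel whose locus also hosts a microRNA, read 2704 and 2911 with 3 of 4 probe sets above background. The copper transporter ATP7A, which loads tyrosinase, had a mean of 800, and the lysosomal channel TPCN2 read 355 and 346. OCA2, the anion channel protein of melanosomes, read 93.7 and 96.2 and was below background on its single probe set. The signals of these transporters therefore spanned from below background to the top 10%, while the melanin enzymes lay in the top 10%.

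All 9 genes of melanosome traffic were above background, against 52.2% of all genes. RAB38, a small GTPase that delivers TYR and TYRP1, read 9748 and 11237. RAB32, with an overlapping function, read 2668 and 2618. The complex that carries melanosomes along actin was above background for each of its parts: MYO5A, the motor, read 5580 and 5452; MLPH, the adaptor, 4298 and 4211; and RAB27A, the GTPase, 3580 and 3342 on a shared probe set. Of the biogenesis genes, LYST and BLOC1S6 had means of 5696 and 4235. DTNBP1 and HPS4, of further biogenesis complexes, had means of 930 and 498.

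Of the 3 lineage receptors, EDNRB, the endothelin receptor of melanoblasts, was the brightest at 19504 and 20690, with all 3 probe sets above background. MC1R, the melanocortin receptor that raises cyclic AMP, read 1683 and 1667. KIT, the stem cell factor receptor of melanocytes, read 5.4 and 5.8 on its single probe set, which is below the median of the foreign tissue genes. Other lineage markers were above background throughout. S100B, a calcium-binding marker of neural crest derivatives, read 19114 and 21619, though its second probe set had a mean of 39.6. ASAH1, a ceramidase regulated by MITF, read 15127 and 16231, and QPCT, a glutaminyl cyclase, 14004 and 15011. BCL2A1, an anti-apoptotic MITF target, read 12422 and 12055. MIA, a secreted melanoma protein, read 7236 and 7312, and RRAGD, a lysosomal GTPase of the MITF programme, read 7001 and 6356. S100A1, CAPN3 and BIRC7 had means of 2289, 1369 and 770.

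PIR, the gene the study knocked down in its other cells, encodes pirin, an iron-binding nuclear protein. In the NO cells it read 13990 and 14153 on its single probe set and ranked 279th. PIR thus lay in the top 10% of genes in cells given no siRNA.

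Lists of genes known from the states of melanoma lines were read beside the 52.2% of all genes above background, with no test of a difference between lists. Of 31 genes of the pigmented, MITF-high state, 27 were above background (87.1%) with a median percentile of 82.2. Of 39 genes of the invasive, MITF-low state, 25 were (64.1%, median percentile 59.0), and of 27 neural crest genes 17 (median percentile 53.1). The shares of the invasive and neural crest lists were nearly the same, and both lay near the 59.9% of protein-coding genes. PIR itself is in the first list. In the MITF-high list, APOE, a lipid carrier, was the brightest at 14805 and 16483. RHOQ, MBP and GPM6B, of which the latter encode myelin-related membrane proteins, had means of 9224, 9120 and 8659. ADCY2, NR4A3 and CDH1 of this list were below background on both arrays.

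The brightest members of the invasive list were HEG1, a mucin-like membrane protein, at 3281 and 3300, and LOXL2, a lysyl oxidase, at 3170 and 3277. TRAM2, TPM1, THBS1 and DPYD had means of 2505, 2422, 1935 and 1888. AXL, the receptor that gives the state its usual name, read 1476 and 1207. ZEB1, a driver of mesenchymal state, read 1645 and 1686. WNT5A, a Wnt ligand of invasive melanoma, read 130 and 172 and EGFR 35.5 and 187.4; each crossed the background level on 1 array only. PODXL, S100A2, SLIT2, CRISPLD2 and PDGFC were below it on both.

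In the neural crest list, the adhesion molecule CADM1 read 14820 and 14302 and the receptor ERBB3 6573 and 7415. SNAI2, a transcription factor of crest migration, read 5613 and 5495. ETS1, NES and PRRX1 had means of 4333, 3921 and 2934. RXRG, the nuclear receptor that marks neural crest-like melanoma cells, read 1548 and 1276, and NGFR, their usual surface marker, 154 and 168, close above background. SOX9, which often stands opposite SOX10, read 531 and 489. GAP43, GFRA1, GFRA2, TWIST2, MSX2, DLX5, NEFM, NEFL and BMP4 were below background on both arrays.

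**Figure D3:**
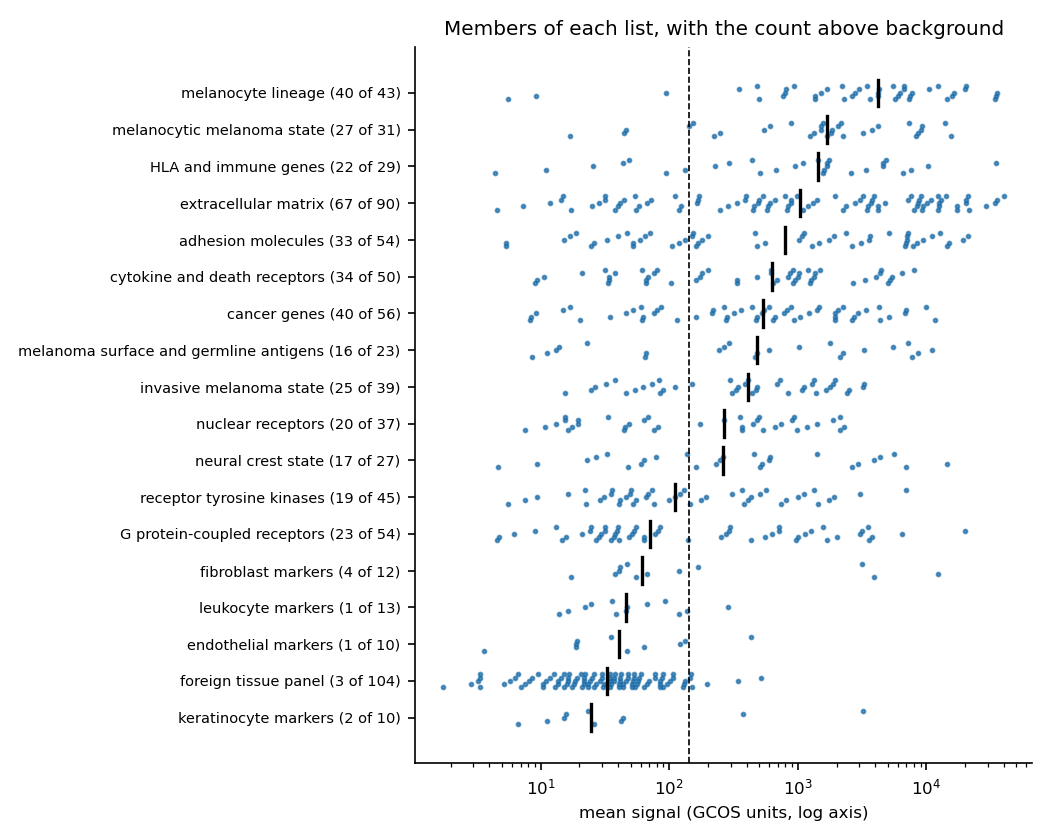
Mean signal of both NO arrays (log axis) for the members of each list; a point is a gene, the black bar the list's median, the dashed line the background level of 142, and the label gives the members above background of those represented. The melanocyte lineage has the highest median, 4187, and the keratinocyte markers the lowest, 24.6.

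Markers of other cell types were mostly below background, while 52.2% of all genes were above it. Of 13 leukocyte markers 1 was above (LCP2, 284), of 10 endothelial markers 1 (KDR, 433), of 10 keratinocyte markers 2 (KRT10, 3237, and SFN, 375), and of 12 fibroblast markers 4. The fibroblast genes above background were COL1A2, POSTN, FAP and LUM, at means of 12256, 3926, 3167 and 167. PDGFRA, PDGFRB, DCN, THY1, COL3A1 and COL6A3 of the same list were below background on both arrays. The defining leukocyte gene PTPRC read 57.7 and 36.9, and the endothelial genes CDH5 and VWF had means of 18.9 and 19.1. The culture was 1 established cell line, so these markers are read as levels in that line and do not count cells of other types. Which cells gave these signals was not tested. Of the 104 foreign tissue genes, which set the level, SFTPC, KLK3 and SFTPB exceeded it on both arrays, the last pair on shared probe sets.

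Melanoma surface antigens were above background in 9 of 9 cases, against 52.2% of all genes. MCAM, an adhesion molecule of melanoma, read 10698 and 11289 on a shared probe set, and SDC3, a syndecan, read 6998 and 7313. CD47, a signal against phagocytosis, MELTF, or melanotransferrin, and CSPG4, the melanoma-associated proteoglycan, had means of 5519, 3247 and 2236. CD276, an immune checkpoint ligand, ST8SIA1, the GD3 synthase, and ALCAM had means of 2117, 1771 and 1016. Cancer-testis genes, normally limited to germ cells, were above background in 7 of 14 cases, near the 52.2% of all genes. PRAME read 8660 and 8646. MAGEA12 of this list and MAGEA6, which was read with the MAGE-A family and is not in the list, had means of 7707 and 10229, but on shared probe sets, so the signal cannot be assigned to a single member. MAGEA4 read 10.0 and 16.4; GAGE1 was also below background.

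Receptor tyrosine kinases were above background in 19 of 45 cases (42.2%), below the share of all genes. ERBB3, the neuregulin receptor, was the brightest of the class at 6573 and 7415. ERBB2, its signalling partner, had a mean of 504, and ERBB4 was below background. RYK, a Wnt receptor, read 3137 and 2961, and DDR2, a collagen receptor, 1909 and 1948. EPHA3, IGF1R, EPHB4 and MET had means of 1735, 1428, 1120 and 1010; IGF1R binds the factors that IGFBP3 carries. AXL and its relative TYRO3 had means of 1341 and 803, while the other relative, MERTK, was below background. In the PDGF and VEGF receptor families only KDR and FLT1 were above background, at 433 and 407. PDGFRA, PDGFRB, CSF1R, FLT3, FLT4 and KIT were not. FGFR1 read 567 on both arrays, and FGFR2, FGFR3 and FGFR4 were below background.

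Of 54 G protein-coupled receptors, 23 were above background (42.6%, against 52.2% of all genes). EDNRB led the class by signal. ADGRG1, an adhesion receptor, read 6499 and 6448, and F2R, the thrombin receptor, 3592 and 3996 on a shared probe set. The Wnt receptors FZD6, FZD7 and FZD1 had means of 3516, 3151 and 3046. HTR2B, a serotonin receptor, read 1809 and 2211. Of 12 chemokine receptors, 1 was above background, CCR10, the receptor of skin-homing cells, at 716 and 700. CXCR4, ACKR3, CXCR3, CCR1, CCR9, CXCR2, CCR2, CX3CR1, CCR6 and CCR7, known from melanoma spread or from leukocytes, were below background on both arrays.

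Cytokine and death receptors were above background in 34 of 50 cases (68.0%, against 52.2% of all genes). IL6ST, the shared gp130 chain, read 8127 and 7781. Its partner LIFR read 20.1 and 48.3. Both chains of the interferon-gamma receptor were above background, IFNGR2 at a mean of 6434 and IFNGR1 at 1478. IL1RAP read 5279 and 5428, whereas IL1R1, the chain it joins to bind interleukin-1, read 44.3 and 22.6. In the TNF receptor family, TNFRSF21, TNFRSF19 and TNFRSF10B, a TRAIL death receptor, had means of 5253, 4428 and 4370. TNFRSF10A, the other TRAIL death receptor, was below background, and FAS had a mean of 1263. Both TGF-beta receptors were above background, TGFBR2 at 5190 and 4876 and TGFBR1 at 3992 and 4132.

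Nuclear receptors stood near the share of all genes, with 20 of 37 above background (54.1%), under the 59.9% of protein-coding genes. This share was at or below that of all genes under 6 of 8 alternative settings, and the count was 13 of 30 when probe sets with the suffixes _x_at and _s_at were left out. NR3C1, the glucocorticoid receptor, read 2388 and 2219 on a shared probe set. RARB, a retinoic acid receptor, and NR1D2, a clock repressor, each had a mean of 2143. The sex steroid receptors ESR1, ESR2 and PGR and the mineralocorticoid receptor NR3C2 were below background on both arrays. PPARG read 5.9 and 9.2, while PPARD had a mean of 987.

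Adhesion molecules were above background in 33 of 54 cases (61.1%), against 52.2% of all genes and 59.9% of protein-coding genes. Of the cadherins, CDH2, or N-cadherin, read 3402 and 3695, and CDH19, a cadherin of crest-derived cells, 3711 and 3510. CDH1, the E-cadherin that holds melanocytes to keratinocytes, read 25.6 and 8.3, and CDH3, or P-cadherin, 4.1 and 6.7. CTNNA1 and CTNNB1, the catenins that join cadherins to actin, had means of 8465 and 5144. The integrin beta chains ITGB1, ITGB8 and ITGB3 were bright, at 20176 and 21675, 14275 and 15458, and 13256 and 12213. ITGB3 pairs with ITGAV, at a mean of 7098, to form a vitronectin receptor of invasive melanoma. The laminin receptor chain ITGA6 had a mean of 7056, and ITGB4, with which it pairs in epithelia, was below background. CD44, the hyaluronan receptor, read 18677 and 19607. Of the leukocyte and epithelial molecules, ITGAL, ITGB2, ITGB7, EPCAM and SELE were below background, as were NCAM1 and VCAM1.

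**Figure D4:**
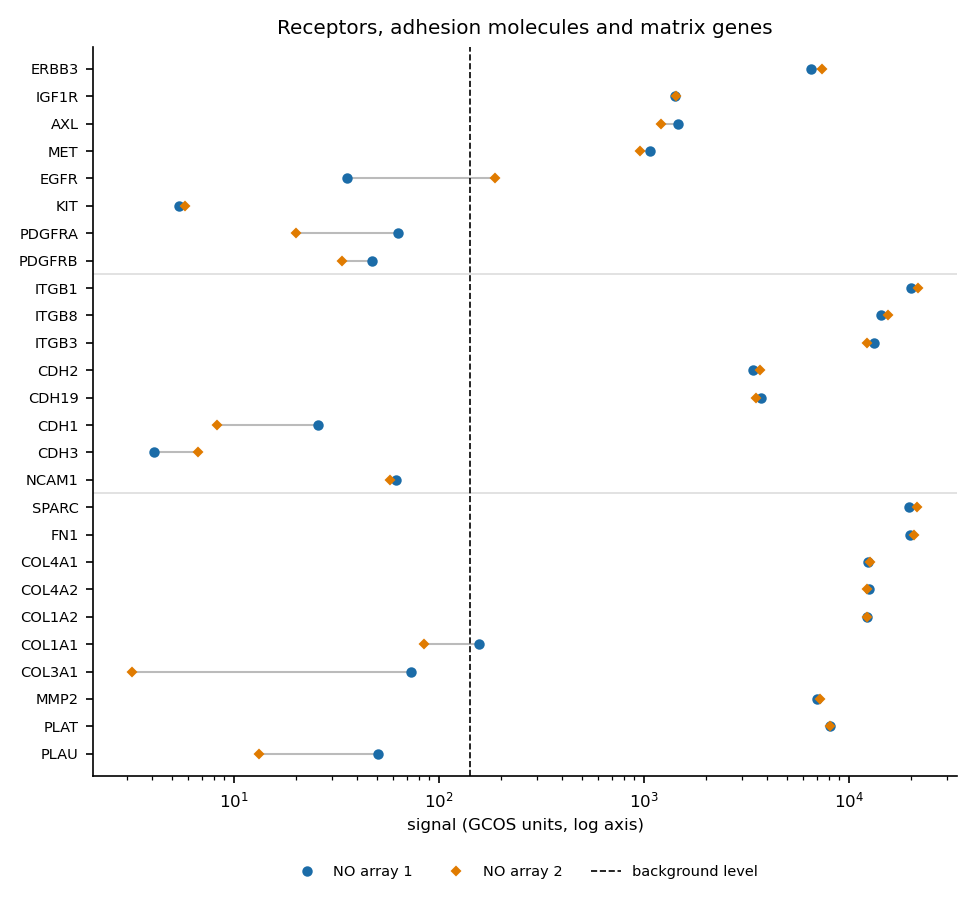
Signal on each NO array (log axis) for receptor kinases (top block), adhesion molecules (middle) and matrix genes (bottom), picked from the text after their values were seen; circles are NO array 1, diamonds NO array 2, and the dashed line is the background level of 142. Signals above the line nearly coincide on the arrays, as for ERBB3 at 6573 and 7415. Signals below it can be further apart, as for COL3A1 at 72.8 and 3.2, or close, as for KIT at 5.4 and 5.8.

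Matrix genes were above background in 67 of 90 cases (74.4%, against 52.2% of all genes), and 36 lay in the top 10%. Of the 23 collagens, 13 were above background (56.5%), near the share of all genes, and their median signal was 397. The brightest were the type IV chains of basement membranes: COL4A1 read 12445 and 12686 and COL4A2, which forms 1 trimer with it, 12586 and 12317. COL15A1, a collagen beneath basement membranes, had a mean of 8517. Type I collagen was uneven, with COL1A2 at 12247 and 12264 on 3 of 3 probe sets and COL1A1 at 156 and 85 with none of 5 above background on both arrays. COL3A1, COL5A1, COL6A3, COL2A1 and COL11A1 were below background on both arrays, although COL6A1, COL5A2 and COL6A2 had means of 3463, 1403 and 1090.

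The glycoproteins were led by secreted regulators of adhesion. LGALS3 and LGALS1, galectins that bind cell surface sugars, read 33027 and 37744 and 27584 and 30222. SPP1, or osteopontin, an integrin ligand known from invasive melanoma, read 33275 and 35356. MGP, an inhibitor of calcification, had a mean of 21333 and SPARC, a collagen-binding protein of melanoma, 20489. FN1, or fibronectin, read 19935 and 20672 on a shared probe set, and LGALS3BP, a galectin ligand, 12006 and 12390. Of the proteoglycans, VCAN, or versican, read 8941 and 9333 on a shared probe set, and SRGN and CSPG4 had means of 3693 and 2236. Decorin, DCN, which fibroblasts make, was below background, as was aggrecan, ACAN.

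Inhibitors of proteolysis stood at the top of the protease group. SERPINE2, a secreted inhibitor of thrombin and plasminogen activators, read 38612 and 41580 and ranked 15th of all genes. TIMP1, TIMP2 and TIMP3, inhibitors of metalloproteinases, had means of 17392, 17166 and 12939. Their targets included MMP8, a neutrophil collagenase, at 8564 and 8927 with both probe sets above background, MMP2, a gelatinase, at 7013 and 7251 on 1 of 3, and MMP14, which activates MMP2, at a mean of 2792. MMP3, MMP7 and MMP13 were below background. Of the plasminogen activators, PLAT read 8047 and 8082 and PLAU 50.2 and 13.3. Collagen-modifying enzymes were bright, with P4HB, PLOD3, SERPINH1 and P4HA1 at means of 20924, 14165, 10897 and 9346. LOX read 28.3 and 35.1, in contrast to its relatives LOXL4 and LOXL2 above.

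Of 29 HLA and immune genes, 22 were above background (75.9%, against 52.2% of all genes). When probe sets with the suffixes _x_at and _s_at were left out, 11 of 22 were, near the 47.5% of all genes under that setting. B2M, the light chain of HLA class I, read 33166 and 36241. HLA-C and HLA-B had means of 10326 and 7623, on probe sets shared between HLA genes, so the levels of single genes are uncertain. Class II genes were above background as well: HLA-DPA1 read 6826 and 6303, HLA-DRA 4530 and 4641, and CD74, the invariant chain, 3490 and 3346. CIITA, the activator of class II genes, read 135.9 and 51.5, and HLA-DQA1 47.6 and 3.2. The checkpoint ligands CD274 and PDCD1LG2 and the enzyme IDO1, all known as responses to interferon-gamma, were below background on both arrays.

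Of 20 tumour suppressors, 14 were above background (70.0%), and of 36 oncogenes 26 (72.2%), against 52.2% of all genes and 59.9% of protein-coding genes. CDKN2A, a suppressor often lost in melanoma, read 175 and 147 on a shared probe set, and its neighbour CDKN2B read 9.0 and 7.5. RB1, which acts downstream of CDKN2A, read 4040 and 4604. The cell cycle genes CCND1 and CDK4, which hold RB1 in check, read 9768 and 10261 and 7070 and 6826. MYC read 6742 and 6941 and RAC1, a GTPase of motility, 11860 and 11593. CDK6 had a mean of 2927. NF1, FHIT, DCC and WT1 were below background among the suppressors, and MYCN, MYCL, TERT, ERG and GLI1 among the oncogenes.

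Cells often use 1 of several genes for an enzyme according to tissue. In 34 isoform families with 2 or more members represented, 81 of 120 genes were above background (67.5%, against 52.2% of all genes). In 10 families exactly 1 member was above. At each step of glycolysis measured, the ubiquitous isoform was above background. HK1 read 6093 and 5910, HK2 2136 and 2574, and HKDC1 624 and 593, while HK3, the leukocyte form, read 7.5 and 10.7. Of the phosphofructokinases, PFKP, PFKM and PFKL had means of 5503, 2904 and 1073. ALDOA was above background and the brain form ALDOC was not, at means of 22372 and 61.9. PGK1 read 24301 and 27693, and its testis form PGK2 53.2 and 54.9. PGAM1 had a mean of 16235 and the muscle form PGAM2 one of 17.5. All 3 enolases were above background, ENO1 at a mean of 27395, the neuronal ENO2 at 1365 and the muscle ENO3 at 266. PKM had a mean of 17753, and PKLR of liver and red cells 84.8.

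Both common lactate dehydrogenase chains were bright, LDHA at 31839 and 34901 and LDHB at 25855 and 27804, the latter on a shared probe set. The testis form LDHC and LDHD were below background. PDK1, which restrains pyruvate entry into mitochondria, had a mean of 4083, PDK3 827, PDK2 385 and PDK4 14.3. Glucose transporters had signals of 1276 at most. SLC2A10, SLC2A13, SLC2A1 and SLC2A3 had means of 1276, 920, 737 and 529, SLC2A6 and SLC2A8 of 212 and 189, and SLC2A5 crossed the level on 1 array. SLC2A1, the ubiquitous transporter, was above background on 1 of 2 probe sets. SLC2A2, SLC2A4 and SLC2A12 were below background. Of the monocarboxylate transporters, SLC16A4 had a mean of 3091, SLC16A7 one of 191 and SLC16A8 was below background. SLC16A1, SLC16A3 and SLC16A6 of this family were not analysed here.

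**Figure D5:**
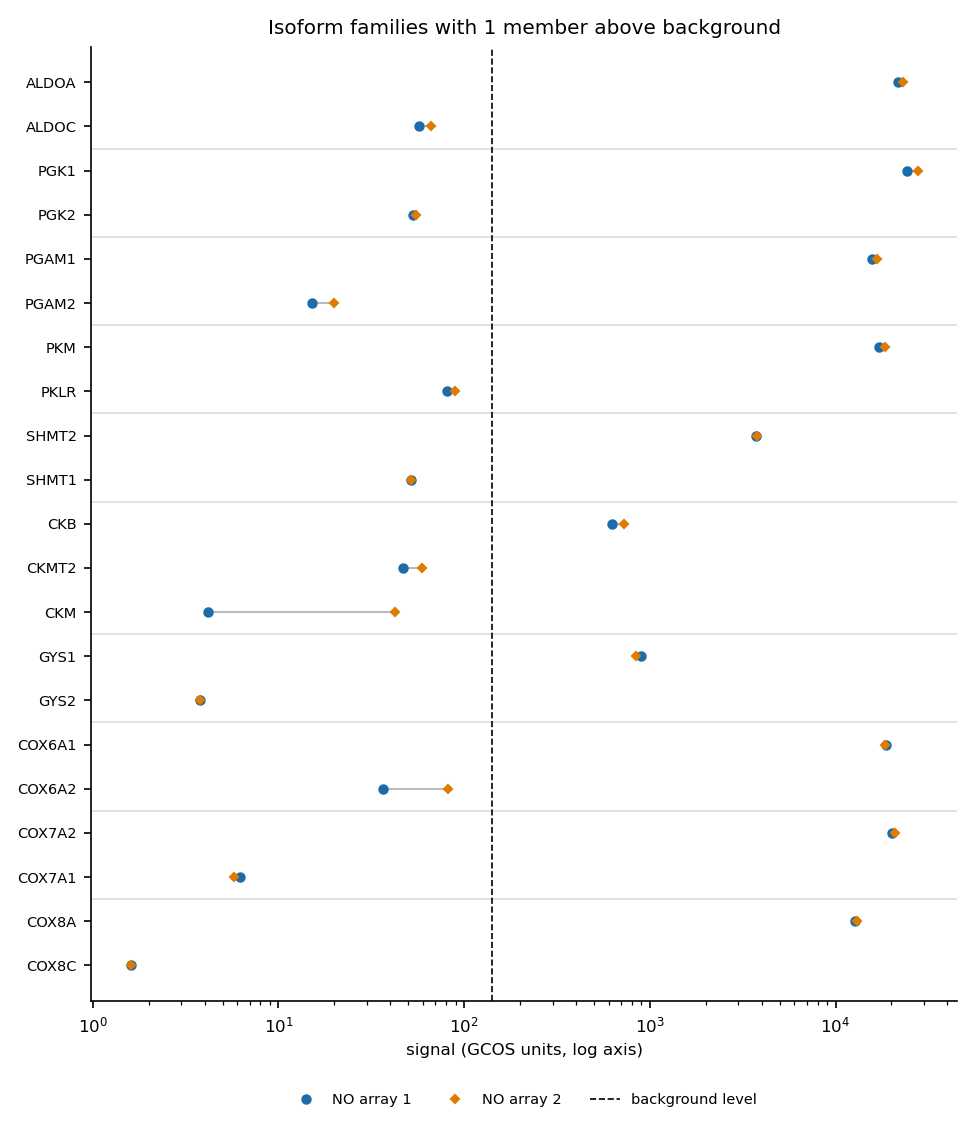
Signal on each NO array (log axis) for the 10 isoform families in which exactly 1 member was above background, separated by grey lines; circles are NO array 1, diamonds NO array 2, and the dashed line is the background level of 142. In each family 1 gene lies right of the line on both arrays, such as ALDOA with a mean of 22372, and its relatives lie left of it.

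For 3 subunits of cytochrome oxidase, 1 isoform was above background and its tissue-restricted relative was not. COX6A1, COX7A2 and COX8A had means of 18603, 20539 and 12846, while the muscle forms COX6A2 and COX7A1 and the germ cell form COX8C were below background. COX4I1 had a mean of 16109 and COX4I2, the lung form, 209. The adenine nucleotide carriers SLC25A5 and SLC25A4 had means of 29212 and 5582, and the testis form SLC25A31 was below background. All 5 isocitrate dehydrogenase genes were above background, with IDH1 of the cytosol at 7221, the mitochondrial IDH2 at 1715 and IDH3G, IDH3A and IDH3B at 3211, 2679 and 2663. ME1 and ME2 had means of 5322 and 2535, and ME3 was below background. GOT2, GLUD1 and GOT1 of glutamate use had means of 2989, 2557 and 1950, and GPT was above on 1 array. The gluconeogenic genes FBP1, FBP2, PCK1 and G6PC1 were below background, and PCK2 and PC had means of 571 and 259.

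In folate metabolism, the mitochondrial SHMT2 read 3732 and 3793, while the cytosolic SHMT1 read 51.7 and 51.9. MTHFD1 of the cytosol had a mean of 8207, MTHFD2 and MTHFD2L of mitochondria 2894 and 885, and MTHFD1L was below background. All 5 acetyl-CoA makers, both acetyl-CoA carboxylases and both stearoyl-CoA desaturases represented were above background. ACLY, which makes acetyl-CoA from citrate, had a mean of 8804, ACAT1 6793, ACAT2 2191, ACSS2 1214 and ACSS1 536. ACACA and ACACB had means of 1434 and 370, SCD, the desaturase under MITF and sterol control, 11458, and SCD5 2050. CPT2, CPT1A and CPT1C of fatty acid oxidation had means of 1043, 1036 and 502. Glycogen use was represented by PYGL and PYGB at 3911 and 1742 and GYS1 at 866, with the muscle PYGM and the liver GYS2 below background. CKB had a mean of 677, and CKM and CKMT2 were below background. NAMPT, the main step of NAD salvage, had a mean of 4444, NAPRT 1016, NMNAT1 642 and NADSYN1 478, with NMNAT2 and NMNAT3 below background.

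Of the detoxifying families, ALDH1A3, a retinaldehyde dehydrogenase, stood apart at 24579 and 26055. ALDH1A1 and ALDH1B1 had means of 627 and 411, and ALDH1A2 and ALDH1L1 were below background. SOD1 of the cytosol read 22177 and 22839, SOD2 of mitochondria 298 and 326, and the secreted SOD3 was below background. CA12, a membrane carbonic anhydrase, read 5309 and 5766. CA13, CA8, CA11 and CA14 had means of 535, 390, 255 and 218, and CA1, CA2, CA3, CA4 and CA5B were below background.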

How the data were processed

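Total RNA of the NO pool was measured on 2 Affymetrix HG-U133 Plus 2 arrays. The authors deposited 1 intensity per probe set and array, on a linear scale and made with the array software GCOS, per the submitters' processing notes; for its version and settings the sources used here give nothing. The mean of each array without its 2% dimmest and 2% brightest probe sets was 500, so differences in total signal were scaled away. No detection calls were used. The arrays carry 54675 probe sets. The platform annotation gives 1 gene for 41097 of them, several for 1801 and does not list 11777, and 99.9% of the first matched RefSeq by Entrez identifier. A gene took its probe set with the highest mean on the NO arrays. Genes on probe sets marked _x_at are called shared, and those on probe sets marked _s_at are not so called. PIR, PMEL and KIT each rest on a single _s_at probe set and had no value when both suffixes were left out. The arrays were averaged and genes ranked with Python 3.11.15 and pandas 2.3.3, and the steps were tested on simulated data. With 1 pool no test was made, and 2 arrays limit the precision. The genes named are the 30 brightest, the 20 brightest outside protein synthesis, the melanocyte lineage genes and PIR, up to 8 of the brightest and up to 10 below background in each list, all isoforms, and the 6 genes with the largest array difference; others are named for the text and were chosen after their values were seen. Members and lists were chosen with earlier results of these data known. The 8 alternative settings concerned the arrays, the probe set, the background level and the scale.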

Additional observations from a re-analysis of the deposited data

Results flagged for a closer look

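Signal lay above background in probe sets that gave no gene value. Of 11721 probe sets not listed in the platform annotation used, control probe sets left out, 1412 were above the background level on both NO arrays. Of 1801 listed with several genes, 934 were (51.9%). Of the 41097 probe sets with 1 gene, 44.9% were above. The unlisted probe sets had the lowest share of these classes, and the shares were not tested against each other. The unlisted and several-gene probe sets are given here because they carry signal outside the genes reported, and no gene was named from them.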

How the results depend on the processing

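Of 134 counts and agreement values recomputed under 8 settings, 131 stayed within 1.5 times the reported value. With probe sets marked _x_at or _s_at left out, 32 of the 100 brightest genes stayed among the 100 brightest, and the count above background was 13 for nuclear receptors and 11 for HLA and immune genes; that setting leaves 17100 genes. Genes above background numbered 8125 there and 11666 with the background at the median of all probe set values. Either NO array alone kept 99 of the 100 brightest genes. With the median over a gene's probe sets, 70 were kept. SOX10, MLANA, GPNMB and S100B then read 3402, 4196, 21789 and 10203, each the midpoint of a brighter and a dimmer probe set. TYR and EDNRB, with 3 probe sets each, read 28648 and 15076. Nuclear receptors changed side of the share of all genes, and the other 16 of 17 lists did not. No paired analysis was possible because only the NO group was used and its result comes from no test. Similar signals near 142 and below cannot be ordered reliably, and the single pool gives no error for the culture.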

Other observations

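Other gene families of the NO cells were read in the same way. Of 28 HOX genes, which set position along the body axis, 21 were above background (75.0%, against 52.2% of all genes), at modest signals: HOXB7 read 3679 and 3491, HOXC6 1944 and 1853 and HOXB2 1737 and 1671. Of 9 PAX genes 2 were above, PAX3 and PAX8, the latter at a mean of 498 on 1 of 8 probe sets. SOX4 had a mean of 5570 beside SOX10 and SOX5, and 10 of 19 SOX genes were above background. Of 44 keratins 2 were above, KRT10 and KRT18, at means of 3237 and 489, and of 20 claudins 4, led by CLDN11 at 2898 and 3048 and CLDN1 at 1576 and 1645. The gap junction genes GJA3, GJC1 and GJB1 had means of 2331, 2246 and 1816, among 5 of 13 connexins above background. S100A10 and S100A6 followed S100B at means of 18278 and 17550, and 9 of 19 S100 genes were above. ANXA5, ANXA2 and ANXA1 had means of 22287, 20063 and 7508, with 8 of 11 annexins above. Metallothioneins were above in 6 of 9 cases, each on shared probe sets, led by MT2A at 9700 and 9982. Of 28 tetraspanins 16 were above; TSPAN3, TSPAN13, CD9 and CD81 followed CD63 at means of 11302, 7955, 7919 and 7247. Of 30 serpins 9 were above, SERPINE2 and SERPINH1 first.

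Long non-coding RNAs were above background in 292 of 2658 cases, and protein-coding genes in 59.9%. The brightest were ZFAS1, a snoRNA host, at 12796 and 12777 on a shared probe set, and NORAD, which binds Pumilio proteins, at 11189 and 11626. CRNDE, OIP5-AS1 and MALAT1 had means of 5857, 4972 and 4228, and LINC00520 and LINC00518 of 3479 and 2999. Overlapping and antisense transcripts cannot be told apart where a probe set does not mark the strand.

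Among genes above background, those whose arrays differed most were DSTNP2, PTPDC1, DMRT2, PHRF1, PLAG1 and UTS2R. DSTNP2 read 586 and 215 and DMRT2 377 and 858; the log2 difference of array 2 over array 1 was -1.45 and 1.19. Genes with 1 probe set were above background in 35.5% of cases, and genes with several in 66.8%.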
